A study of Mus musculus with 8 samples.

Results

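Microglia use a set of cell-surface receptors and enzymes for extracellular nucleotides, and 10 genes of that set (P2ry12, P2ry13, P2ry6, P2ry14, P2rx4, P2rx7, Entpd1, Adora3, Adora2a and Nt5e) are described here in microglia flow sorted from the mouse optic nerve. Genes were taken by symbol from the deposited expression table. The 10 symbols matched 11 of its 37447 rows, since Adora3 stands there under 2 Ensembl identifiers. The FFC group carries the genotype Nf1 flox/flox; GFAP-Cre, in which Cre recombinase under the promoter of the astrocyte gene Gfap removes Nf1 from astrocytes. The FF group carries Nf1 flox/flox without Cre and is the control, so that both groups share the floxed alleles. All mice were C57BL/6 and 3 months of age, with 2 female and 2 male libraries per genotype (FFC 1, FFC 4, FF 1 and FF 4 female, the others male). Per the labels the libraries within a genotype are biological replicates, but the sources do not say whether animals were pooled for a library, and the p-values below therefore measure the spread between libraries. The antibodies or gates of the sort are likewise not stated. The question of the study was which genes of microglia differ when the astrocytes around them lack Nf1.

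Cells release ATP, ADP and UDP when they are damaged or active, and microglia sense these nucleotides with ligand-gated P2X channels and G protein-coupled P2Y receptors. The ectonucleotidase CD39, encoded by Entpd1, degrades ATP and ADP to AMP, and CD73, encoded by Nt5e, turns AMP into adenosine, which acts on its own G protein-coupled receptors. P2Y12 is widely used as a marker of resting microglia and steers their processes towards sites of injury, while P2X7 is known as a trigger of the inflammasome.

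The members split into an abundant and a scarce set. Values are FPKM, fragment numbers scaled to transcript length and library size, so that levels can be compared between genes. They hold no counts, and the depth behind a value is unknown. Of the 11 rows, 7 averaged 45.9 to 262 FPKM over the 8 libraries (P2ry12, Entpd1, P2rx7, P2ry13, P2rx4, the Adora3 row ENSMUSG00000000562 and P2ry6). The other 4 averaged 0.470 to 3.18 FPKM (the Adora3 row ENSMUSG00000074344, P2ry14, Adora2a and Nt5e). No member passed the test between FFC and FF microglia, in a comparison that called 0% of all genes. The values of every member overlapped between the genotypes, while 3.05% of all genes were higher and 1.29% lower in FFC without overlap. The largest differences of mean log2(FPKM + 1) were those of Adora3, P2rx4 and P2ry6, each with the higher mean in FFC.

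The sorted cells carried the markers of microglia. All 12 microglial markers outside the members were detected, and their summed level was 3489 to 6323 FPKM in FFC and 1690 to 5069 FPKM in FF. The library FF 2 held the lowest sum and FF 4 the next. Both also resembled the other libraries least, with median Spearman correlations across genes of 0.398 and 0.464, against 0.507 to 0.597 for the other 6. They had the lowest summed FPKM, 391924 and 367760 against at least 525184, and the highest share of it in chemosensory receptor genes, 4.56% and 3.6% against at most 1.86%. Among markers of other cells, neutrophil genes summed to 2.66 to 810 FPKM in FFC and 186 to 2782 FPKM in FF, T cell genes to 6.00 to 38.7 and 31.2 to 476 FPKM, and markers of border-associated macrophages to 97.5 to 956 and 363 to 1041 FPKM. Platelet genes summed to 1.155 to 53.5 FPKM in FFC and 3.47 to 126 FPKM in FF, and erythroid genes to 18.3 to 38.8 and 36.2 to 155 FPKM. NK cell genes reached 136 FPKM in FF 3 and at most 9.39 FPKM elsewhere. Astrocyte markers summed to 90.8 to 186 FPKM in FFC and 53.5 to 201 FPKM in FF, most of it Slc1a3, with Gfap at most 1.03 and Aqp4 at most 2.01 FPKM. The other 3 of the 6 astrocyte markers reached 24.1 FPKM for Slc1a2 in FF 2, 8.42 FPKM for Gjb6 in FF 1 and 5.27 FPKM for Aldh1l1 in FF 3. The part of other cells in the levels below was not tested, and in bulk samples fewer cells of a type and less RNA per cell cannot be told apart.

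Several of the genes lie side by side in the genome. In the coordinates of the deposited table (mouse build mm9, counted from 1), P2ry13 (ENSMUSG00000036362, chromosome 3, 59011818 to 59014804) ends 5388 bases before P2ry12 (ENSMUSG00000036353, 59020193 to 59066753) begins, and P2ry14 (ENSMUSG00000036381, 58918548 to 58934546) lies on the same chromosome. All 3 sit within the span of Med12l, a subunit of the Mediator complex (58810900 to 59122332), which GENCODE M21 places on the other strand. On chromosome 5, P2rx7 (ENSMUSG00000029468, 123093920 to 123141441) is followed after 16151 bases by P2rx4 (ENSMUSG00000029470, 123157593 to 123179747). Promoter windows of 300 bases from RefSeq (build GRCm38.p6, 250 bases before the transcript start to 50 after, on the gene's strand) are shown for these neighbour pairs, because the first pair varied together across libraries and the second did not. They are chr3:59262936-59263235 for P2ry12 and chr3:59210833-59211132 for P2ry13, both on the minus strand, and chr5:122643677-122643976 for the first listed start of P2rx7 and chr5:122707294-122707593 for P2rx4, both on the plus strand. The transcribed end of the P2ry12 window was not found in the GENCODE M21 transcripts of the gene, so that start rests on RefSeq alone, while those of the other 3 windows were found. Capitals mark matches to GAGGAA, a core bound by ETS factors such as the myeloid regulator PU.1, and to TGANTCA, the site of AP-1 factors.
P2ry12: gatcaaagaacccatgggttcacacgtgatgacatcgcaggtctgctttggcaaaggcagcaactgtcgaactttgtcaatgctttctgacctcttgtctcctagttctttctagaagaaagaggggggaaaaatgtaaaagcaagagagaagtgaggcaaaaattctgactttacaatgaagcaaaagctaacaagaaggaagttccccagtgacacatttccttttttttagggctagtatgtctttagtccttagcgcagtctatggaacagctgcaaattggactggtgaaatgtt
P2ry13: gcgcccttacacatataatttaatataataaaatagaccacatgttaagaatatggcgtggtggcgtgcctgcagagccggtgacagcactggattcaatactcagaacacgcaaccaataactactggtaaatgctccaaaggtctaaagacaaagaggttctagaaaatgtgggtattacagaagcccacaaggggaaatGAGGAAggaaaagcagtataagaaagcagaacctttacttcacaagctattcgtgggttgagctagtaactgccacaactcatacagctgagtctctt
P2rx7: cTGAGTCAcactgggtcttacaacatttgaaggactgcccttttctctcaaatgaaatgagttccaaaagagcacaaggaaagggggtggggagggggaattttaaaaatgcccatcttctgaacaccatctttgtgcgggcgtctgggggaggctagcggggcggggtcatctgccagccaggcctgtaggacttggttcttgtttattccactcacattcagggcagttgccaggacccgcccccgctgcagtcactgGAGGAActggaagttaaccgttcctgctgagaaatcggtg
P2rx4: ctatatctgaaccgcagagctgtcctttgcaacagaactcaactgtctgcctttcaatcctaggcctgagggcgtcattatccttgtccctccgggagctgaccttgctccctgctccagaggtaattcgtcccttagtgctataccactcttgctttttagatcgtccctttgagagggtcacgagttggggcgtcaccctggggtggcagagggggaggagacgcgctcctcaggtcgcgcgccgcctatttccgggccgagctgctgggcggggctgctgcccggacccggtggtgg

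Each motif was searched on both strands, and overlaps between motifs were allowed. P2ry13 holds GAGGAA at bases 203 to 208 of its window. P2rx7 holds TGAGTCA at bases 2 to 8 and GAGGAA at bases 261 to 266. The windows of P2ry12 and P2rx4 hold neither run of letters. Over the 8 members with a window in the RefSeq table (all but P2ry6 and Adora2a), 5 held GAGGAA in at least 1 window, 3 held TGANTCA and 0 held the core of the interferon-stimulated response element. Among all 32851 windows of this length, 28.3% held GAGGAA, 7.81% TGANTCA and 3.44% the interferon-stimulated core. Windows per member differ in number, with 4 for P2ry14 and 1 for P2ry12, so these shares are not on 1 footing. The windows of the P2X pair also differed in composition, with 53.3% G and C and 8 CpG for P2rx7 and 60.3% and 18 for P2rx4. The second listed P2rx7 window, not shown, had 51.7% and 4 CpG. Those of P2ry12 and P2ry13 both had 42.3%, with 4 and 6 CpG. A link between these windows and how the pairs varied across libraries was not tested.

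P2ry12 was the most abundant member and lay near the top of each library. The Gi-coupled ADP receptor had 122, 284, 294 and 329 FPKM in FFC 1 to FFC 4, and 256, 192, 428 and 189 FPKM in FF 1 to FF 4. Its percentile among the tested genes of a library was between 96.5 and 99.0. FFC 1 held the lowest value and the FF library FF 3 the highest, and the other FFC libraries lay inside the FF range. The mean was 257 ± 92.4 FPKM in FFC and 266 ± 112 FPKM in FF (SD, n = 4 here and below), a difference of mean log2(FPKM + 1) of -0.06 ± 0.52 (SE; limma adjusted p = 0.979). All differences below are on that scale, FFC minus FF, and adjusted p-values are those of limma with Benjamini-Hochberg adjustment over 17753 genes, those averaging 1 FPKM or more. The direction for P2ry12 was not stable: the difference was 0.26 without FFC 1 and 0.19 without FF 3.

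P2ry13, a second ADP receptor of microglia, followed P2ry12 from library to library. It had 41.4, 116, 134 and 129 FPKM in FFC 1 to FFC 4, and 90.9, 58.0, 119 and 60.2 FPKM in FF 1 to FF 4. FFC 1 was again the lowest library, and FFC 3 and FFC 4 lay above the highest FF value. The means were 105 ± 43.2 FPKM in FFC and 82.1 ± 28.99 FPKM in FF, and the difference of 0.28 ± 0.58 did not pass the test (adjusted p = 0.903). It was 0.68 without FFC 1, 0.12 without FFC 3, and -0.12 without FF 2 and FF 4, an alternative chosen with earlier results known. The ratio of P2ry12 to P2ry13 was 2.95, 2.44, 2.19 and 2.56 in FFC 1 to FFC 4, and 2.82, 3.32, 3.59 and 3.14 in FF 1 to FF 4. Across the 8 libraries this ratio spanned 1.64-fold, less than either gene alone. FFC ratios were mostly the lower, with FFC 1 inside the FF range, and the difference of mean log2 ratio of -0.35 had an exact two-sided permutation p of 0.0571 (70 ways to split the libraries, so no p under 0.0286 can be reached).

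**Figure D1:**
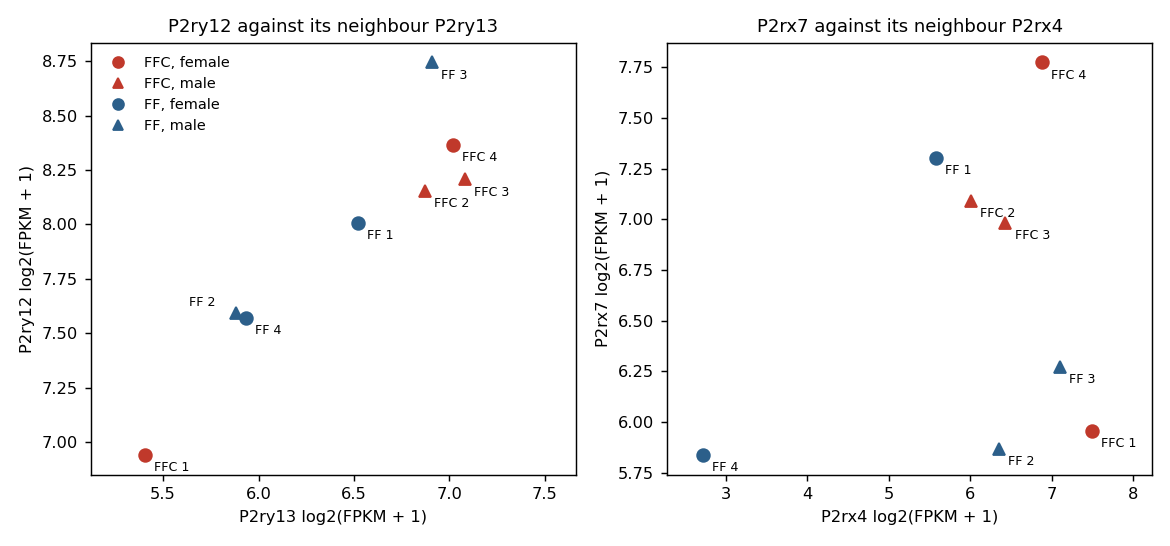
Each point is 1 library, with log2(FPKM + 1) of P2ry12 against P2ry13 on the left and of P2rx7 against P2rx4 on the right; red marks FFC, blue FF, circles females and triangles males. P2ry12 and P2ry13 rise along a line from FFC 1 upward, while the P2X pair is scattered, with FF 4 far to the left at a P2rx4 level of 5.58 FPKM.

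P2ry6, the UDP receptor that promotes phagocytosis by microglia, had FFC values mostly above its FF values. It had 36.4, 61.0, 57.2 and 84.7 FPKM in FFC 1 to FFC 4, and 53.9, 21.4, 36.1 and 16.7 FPKM in FF 1 to FF 4. Of the 4 FFC libraries, 3 lay above the highest FF value and FFC 1 lay between FF 3 and FF 1. The means were 59.8 ± 19.8 FPKM in FFC and 32.0 ± 16.8 FPKM in FF, with a difference of 0.96 ± 0.62 (adjusted p = 0.759; exact two-sided permutation p = 0.0571). The difference was 0.37 without FF 2 and FF 4 and at least 0.71 with any single library left out. The ratio of P2ry12 to P2ry6 was 3.35, 4.65, 5.15 and 3.89 in FFC 1 to FFC 4, and 4.76, 8.99, 11.9 and 11.3 in FF 1 to FF 4. It was lower in FFC except that FFC 3 lay above FF 1, by a log2 difference of -1.05 (exact two-sided permutation p = 0.0571). With P2ry12 nearly equal between the genotypes (-0.06), this ratio largely repeats the result for P2ry6. Ratios of P2ry12 to Entpd1 and to Adora3 (ENSMUSG00000000562) were also tried. Their exact two-sided permutation p was 0.429 and 0.143. P2ry6 (ENSMUSG00000048779, chromosome 7, 108086152 to 108112905) lies 32180 bases from P2ry2, whose level stayed between 0.00502 and 2.27 FPKM.

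P2ry14, a receptor for UDP-glucose and other UDP sugars, was scarce. It had 6.90, 1.47, 3.20 and 0 FPKM in FFC 1 to FFC 4, where FFC 4 is listed at 0, and 0.612, 4.03, 1.85 and 0.892 FPKM in FF 1 to FF 4. The FFC range covered the whole FF range, and the difference of 0.23 ± 0.86 did not pass (adjusted p = 0.956). It was -0.24 without FFC 1 and -0.16 with a pseudocount of 0.1. Med12l, whose span covers P2ry14, had 1.99 to 8.30 FPKM, a level of the same size, so reads from this locus without strand information cannot be assigned with certainty. P2ry12 and P2ry13 had at least 41.4 FPKM in every library.

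P2rx7, the ATP-gated channel with low ATP affinity, had 61.1, 135, 126 and 218 FPKM in FFC 1 to FFC 4, and 157, 57.4, 76.2 and 56.1 FPKM in FF 1 to FF 4. FFC 4 was the highest and FF 4 the lowest library, with FFC 1 near FF 2 and FF 4. The means were 135 ± 64.3 FPKM in FFC and 86.6 ± 47.7 FPKM in FF, a difference of 0.63 ± 0.59 that did not pass (adjusted p = 0.765). It was 0.96 without FFC 1 or without FF 1, 0.36 without FFC 4, and 0.16 without FF 2 and FF 4.

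P2rx4, a channel of higher ATP affinity that is also found in lysosomes, behaved differently from its neighbour. It had 179, 63.5, 85.3 and 117 FPKM in FFC 1 to FFC 4, and 46.6, 80.8, 136 and 5.58 FPKM in FF 1 to FF 4. FFC 1, the lowest library for P2ry12 and P2ry13, was the highest for P2rx4, and FF 4 was far below all others. The means were 111 ± 50.4 FPKM in FFC and 67.2 ± 55.2 FPKM in FF, with a difference of 1.27 ± 0.85 (adjusted p = 0.759). That value rested on FF 4: without it the difference was 0.36, and it was 1.82 without FF 3. The ratio of P2rx7 to P2rx4 was 0.341, 2.13, 1.47 and 1.87 in FFC 1 to FFC 4, and 3.36, 0.710, 0.561 and 10.1 in FF 1 to FF 4, a 29.6-fold span. The genotypes overlapped in this ratio (exact two-sided permutation p = 0.629).

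Adora3, the Gi-coupled A3 adenosine receptor, had the largest difference of mean log2 value of any member. Its row ENSMUSG00000000562 (chromosome 3, 105673776 to 105711846) had 69.9, 133, 63.1 and 138 FPKM in FFC 1 to FFC 4, and 166, 25.1, 44.3 and 10.0 FPKM in FF 1 to FF 4. FF 1 was the highest library of all, while the other 3 FF libraries lay below every FFC library. The means were 101 ± 40.0 FPKM in FFC and 61.4 ± 71.3 FPKM in FF, and the difference of 1.32 ± 0.78 did not pass (adjusted p = 0.759; exact two-sided permutation p = 0.171). It was 2.03 without FF 1, 0.72 without FF 4, and 0.14 without FF 2 and FF 4. The row ENSMUSG00000074344 (105673825 to 105726954) overlaps the first over 38022 bases. It had 7.85, 0.147, 3.12 and 0.879 FPKM in FFC 1 to FFC 4, and 0.0998, 1.34, 5.59 and 6.42 FPKM in FF 1 to FF 4. GENCODE M21 gives that identifier the symbol Tmigd3, and the split of reads between overlapping rows is uncertain. Its difference was -0.17 ± 0.95 (adjusted p = 0.970), and that of both rows summed was 1.15 (exact two-sided permutation p = 0.171).

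Adora2a, a Gs-coupled adenosine receptor (ENSMUSG00000020178, chromosome 10, 74779688 to 74797533), had 5.68, 0, 0.939 and 0 FPKM in FFC 1 to FFC 4, where FFC 2 and FFC 4 are listed at 0, and 0.446, 1.74, 1.30 and 7.99 FPKM in FF 1 to FF 4. The female libraries FFC 1 and FF 4 were the high ones, so each genotype had a single library above 2 FPKM. The difference of -0.67 ± 0.90 did not pass (adjusted p = 0.839), and it was -1.27 without FFC 1, -0.14 without FF 4, 0.06 without FF 2 and FF 4, and -1.89 with a pseudocount of 0.1.

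The enzymes at both ends of the ATP to adenosine path differed widely in level. Entpd1 (ENSMUSG00000048120, chromosome 19, 40686856 to 40816092) had 126, 75.3, 125 and 171 FPKM in FFC 1 to FFC 4, and 86.8, 38.6, 102 and 174 FPKM in FF 1 to FF 4. FF 2 was the lowest library and the genotypes overlapped throughout. The means were 124 ± 39.2 FPKM in FFC and 100 ± 56.2 FPKM in FF, a difference of 0.44 ± 0.59 (adjusted p = 0.837). Leaving out FF 2 gave 0.05, leaving out FFC 4 gave 0.27, and leaving out FFC 2 or FF 4 gave 0.66 or 0.76. Nt5e (ENSMUSG00000032420, chromosome 9, 88222447 to 88266927) had 0.235, 0.0471, 0.0414 and 0 FPKM in FFC 1 to FFC 4, where FFC 4 is listed at 0, and 0.748, 0.156, 1.82 and 0.712 FPKM in FF 1 to FF 4. FFC libraries were mostly below FF libraries, with FFC 1 above FF 2. Its mean over all libraries was under 1 FPKM, so it was the 1 member left out of the test, and its difference of -0.71 had an exact two-sided permutation p of 0.0571. The difference was -0.92 without FF 2 (exact two-sided permutation p = 0.0286), -1.05 without FF 2 and FF 4 (exact two-sided permutation p = 0.0667), and -2.23 with a pseudocount of 0.1. FF 2 was the only FF library below any FFC value, so its removal alone separates the groups. Both p-values are then the smallest that their split of libraries can give, and they add nothing to the result from all libraries.

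**Figure D2:**
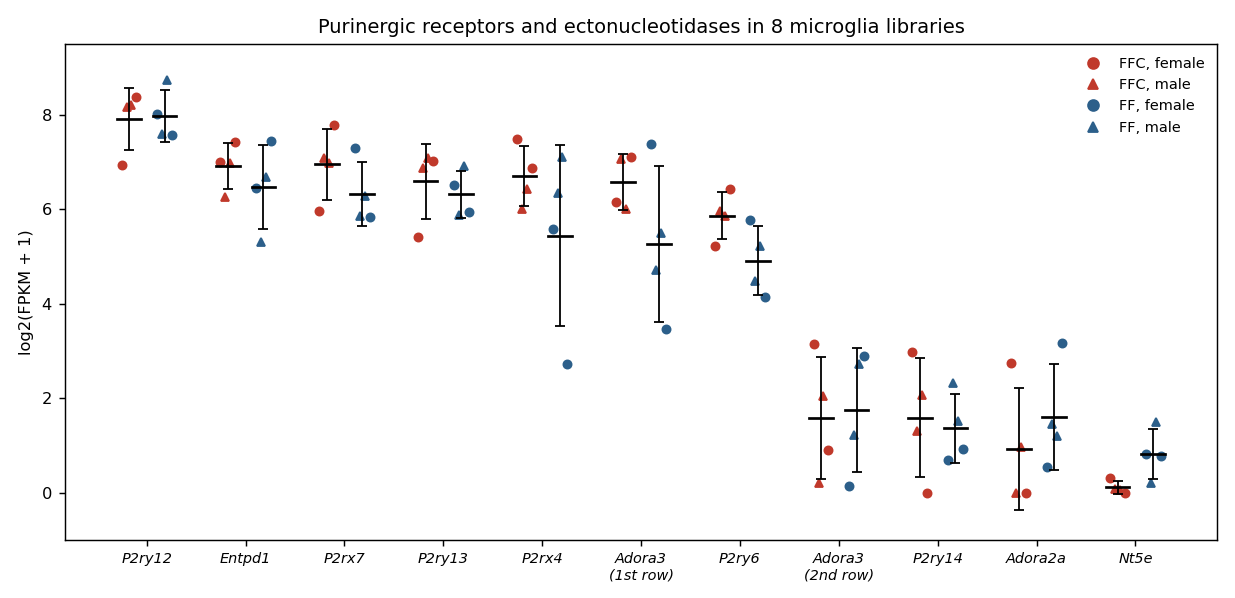
Level of each member row in every library as log2(FPKM + 1), ordered by mean FPKM over the 8 libraries; red marks FFC, blue FF, circles females and triangles males, and black bars give the group mean and SD (n = 4). Adora3 (1st row) is ENSMUSG00000000562 and Adora3 (2nd row) is ENSMUSG00000074344. The 7 abundant rows have higher means than the 4 scarce ones, and FFC and FF overlap in each row. The point of P2rx4 in FF 4, at 5.58 FPKM, lies among the scarce rows.

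In the order of mean levels, P2ry12 stood above Entpd1, the next member, in 7 of 8 libraries, by 1.25 ± 0.87 on the log2(FPKM + 1) scale (mean and SD of the gap within a library). Entpd1, P2rx7, P2ry13, P2rx4 and Adora3 (ENSMUSG00000000562) followed with gaps between neighbours of 0.06 to 0.38, each smaller than its SD over libraries. P2ry6 came next, lower than that Adora3 row in 7 of 8 libraries by 0.54 ± 0.70. A gap of 3.73 ± 1.75 in 8 of 8 libraries separated P2ry6 from the scarce rows. Among the scarce rows no neighbouring pair differed by more than the SD of its gap. The summed FPKM of all member rows made up 0.125% to 0.182% of a library in FFC and 0.123% to 0.162% in FF.

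Read together, the members gave no call. Of the 10 rows tested, 7 had a higher mean in FFC and 3 a lower one, against 56.7% of all tested genes with a higher mean in FFC. The median difference was 0.36 for the members and 0.19 for all tested genes, both of which moved with the scaling. Among genes averaging 5 FPKM or more it was 0.63 for the members and 0.38 for all genes. The members' median was 0.17, 0.19 and 0.17 after upper-quartile, quantile and equal-sum scaling, and that of all genes 0.03, 0.03 and 0.04. Among the 7 abundant rows 6 had the higher mean in FFC, and in 3 of them (P2rx4, Adora3 and P2ry6) every FFC library lay above the FF median. The shares of all genes averaging 5 FPKM or more with these patterns were not counted, so neither count sets the members apart. The microglial markers outside the members moved the same way, with a higher mean in FFC for 11 of 12. The mean was higher in FFC for 0 of 5 markers of border-associated macrophages, 0 of 6 of T cells and 0 of 5 of mural cells and fibroblasts. It was also 0 of 3 each for erythroid cells, platelets and oligodendrocyte precursors. Other types were mixed, with 3 of 5 for oligodendrocytes, 2 of 4 each for monocytes and NK cells, and 2 of 6 for astrocytes. Neutrophils had 1 of 5, and B cells and endothelial cells 1 of 4 each. The part of these in the members' differences was not tested. With each of those scalings the abundant rows other than P2ry12 still had the higher mean in FFC. For P2ry13 the difference was then 0.05 ± 0.49 (SE) after upper-quartile scaling. At an adjusted p under 0.05 limma called 0 of the 10 rows and 0% of all 17753 genes. At an unadjusted p under 0.05 it passed 0 of the rows, against 4.52% of all genes higher and 1.94% lower in FFC. Groups without overlap were found for 0 of the members, against 3.05% of all genes higher and 1.29% lower in FFC. Library titles hold a month followed by a number, with November for FF 1 to FF 3 and FFC 1 and December for the others. Each month thus has 1 of the genotypes in a single library and gives no value with a spread. Ordered by month and number, FF 1 to FF 3 come before every FFC library. Genotype and title order can therefore hardly be told apart, and a term for the month does not separate them. With the month as a term the differences of P2rx4 and Adora3 (ENSMUSG00000000562) were 2.44 and 1.77, those of P2ry14 0.84, P2ry13 0.01 and Entpd1 0.14, and no member passed.

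**Figure D3:**
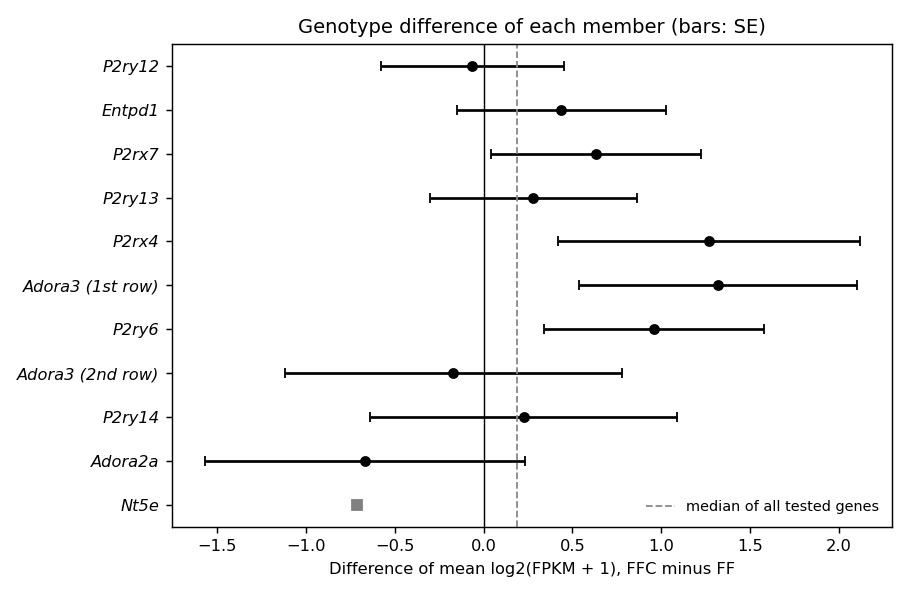
Difference of mean log2(FPKM + 1) between FFC and FF for each member row, with bars of 1 SE from limma; the grey square is Nt5e, which was not tested, and the dashed line is the median of all tested genes at 0.19. Adora3 (1st row), P2rx4 and P2ry6 lie furthest to the right and P2ry12 next to 0, and none passed the test.

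Sex was compared with genotype as a covariate. No member passed between males and females (smallest adjusted p = 0.953), and limma called 0% of all genes at that threshold and 3.99% at an unadjusted p under 0.05. P2ry12 averaged 300 ± 97.1 FPKM in males and 224 ± 89.0 FPKM in females, and Entpd1 averaged 85.2 ± 37.2 FPKM in males and 140 ± 41.5 FPKM in females, with 4 libraries each. Male minus female, the log2 difference of P2ry12 was 0.45 ± 0.52 and that of Entpd1 -0.78 ± 0.58 (SE). The difference between genotypes varied most between the sexes for P2rx4. In females it had 179 and 117 FPKM in FFC, against 46.6 and 5.58 FPKM in FF, and in males 63.5 and 85.3 FPKM in FFC, against 80.8 and 136 FPKM in FF. The FFC minus FF difference was -0.50 in males and 3.04 in females, and the interaction of -3.55 ± 1.48 (SE, males against females) had an unadjusted p of 0.0356 and an adjusted p of 1.0 in limma. Without FF 4 the difference in females was 1.61 and the interaction -2.12 ± 0.88 (limma unadjusted p = 0.0599), where the remaining female FF library is assumed to vary like the other groups. Leaving out any of the 8 libraries but FF 1 gave an unadjusted p of 0.0599 to 0.112, and leaving out FF 1 gave 0.00234 (adjusted p = 0.188), alternatives chosen after the data were seen. For the interaction 0% of all genes passed when adjusted and 3.19% at an unadjusted p under 0.05. P2ry6 and Adora3 (ENSMUSG00000000562) had a higher mean in FFC in both sexes, by 1.06 and 1.43 in males and 0.86 and 1.21 in females. In males both FFC libraries lay above both FF libraries for each gene. In females FF 1 lay above both FFC libraries for Adora3 and above FFC 1 for P2ry6. Each sex also held one of the libraries FF 2 and FF 4, and without these the differences over both sexes were 0.37 and 0.14.

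**Figure D4:**
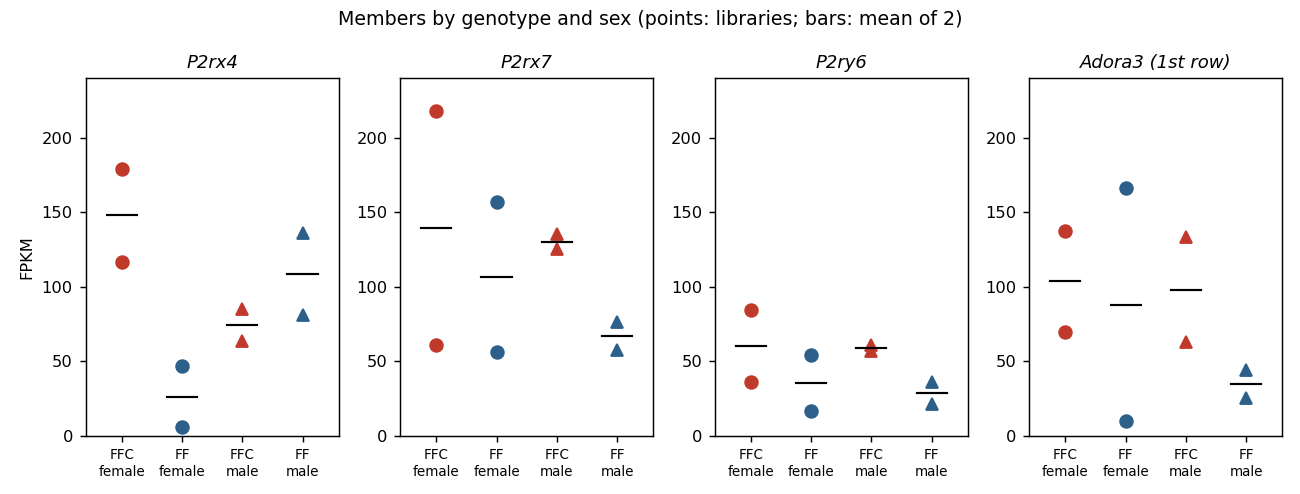
FPKM of P2rx4, P2rx7, P2ry6 and Adora3 (ENSMUSG00000000562) in each library, by genotype and sex; bars are means of 2 libraries. In females both FFC values of P2rx4 lie above both FF values, while in males FFC and FF overlap.

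The genes with the most similar profiles over the 8 libraries were sought by the root mean square difference of log2(FPKM + 1) after centring each gene on its mean, among 8011 other genes averaging 5 FPKM or more. For P2ry12 these were Gdi2 (0.19), P2ry13 (0.22) and Il6st (0.25), against a median of 1.21 over all genes. For P2ry13 the closest was P2ry12, followed by Tecr (0.25) and Hnrnph1 (0.25). P2rx7 and P2ry6 shared Pdlim5 as their closest gene (0.17 each) and lay at 0.28 from each other, so P2rx7 was closer to P2ry6, on another chromosome, than to its neighbour P2rx4 (1.40). Hexa (0.20) and D10Wsu52e (0.22) came next for P2rx7, and Gna13 (0.19) and Cd44 (0.19) for P2ry6. The closest genes were Vps13c (0.24), Rgl2 (0.27) and Copa (0.29) for Entpd1, and Prkar1a (0.32), Gabarap (0.32) and Nufip2 (0.37) for Adora3 (ENSMUSG00000000562). P2rx4 had no gene as near, the closest being Slfn8 (0.44), Mbd2 (0.46) and Gramd1a (0.54), and its distance to the other abundant members was 1.18 to 1.67, against a median of 1.67 over all genes. The measure is not scaled by spread, so a gene that varies widely tends to lie far from others. P2rx4 had the largest SD of any member (1.49), with FF 4 far below its other libraries at 5.58 FPKM. These distances describe 8 libraries and were not tested.

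Other genes of the pathway, listed by role from general knowledge, gave no call either. Of 41 genes, 33 were tested and 20 averaged 5 FPKM or more. Among the tested genes 19 were higher on average in FFC and 14 lower. Their median difference was 0.17, against 0.19 for all genes, and limma called 0 at an adjusted p under 0.05 and 1 at an unadjusted p under 0.05 (Pycard, higher in FFC), where 4.52% of all genes passed as higher and 1.94% as lower. The genes with the highest levels were Gnas, which encodes the stimulatory G protein subunit, at 180 ± 20.0 FPKM in FFC and 131 ± 75.4 FPKM in FF, and Slc29a3, a nucleoside transporter of lysosomes, at 121 ± 37.7 FPKM in FFC and 56.3 ± 45.7 FPKM in FF. Gnai2, the inhibitory subunit that couples to P2Y12, had 85.1 ± 29.01 FPKM in FFC and 82.7 ± 22.1 FPKM in FF. The PI3-kinase genes Pik3cg and Pik3r5 had 66.4 ± 26.4 and 63.1 ± 37.9 FPKM in FFC, against 61.8 ± 36.9 and 48.3 ± 31.3 FPKM in FF.

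Pycard (ENSMUSG00000030793, chromosome 7, 135135617 to 135137381) encodes ASC, the adaptor that joins the sensor Nlrp3 to caspase-1 in the inflammasome that P2X7 can activate. It had 82.3, 60.4, 60.9 and 160 FPKM in FFC 1 to FFC 4, and 15.5, 8.13, 14.8 and 13.2 FPKM in FF 1 to FF 4. Every FFC library was above every FF library, by a difference of 2.64 ± 0.61 that did not pass over all genes (limma adjusted p = 0.496; exact two-sided permutation p = 0.0286). Nlrp3 itself had 28.1 ± 8.71 FPKM in FFC and 31.4 ± 28.4 FPKM in FF, and Casp1 had 60.9 ± 29.8 FPKM in FFC and 36.6 ± 29.2 FPKM in FF. In the other direction, groups without overlap were found for Ada and Bdnf, named after their values were seen. Thus 1 of the 33 genes was higher and 2 were lower in FFC without overlap, against 3.05% and 1.29% of all genes. Ada, the enzyme that removes adenosine, had 0.155, 2.69, 2.12 and 0.804 FPKM in FFC 1 to FFC 4, and 3.87, 4.26, 4.65 and 3.62 FPKM in FF 1 to FF 4. Bdnf, a growth factor that P2X4 signalling is known to release from spinal microglia, had 0.0815, 0, 0.121 and 0.395 FPKM in FFC 1 to FFC 4, where FFC 2 is listed at 0, and 7.44, 1.14, 0.942 and 0.569 FPKM in FF 1 to FF 4. Neither passed the test (limma adjusted p = 0.759 for both).

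Among the other receptors and enzymes, Adora1, the A1 adenosine receptor, had 25.8, 13.3, 9.54 and 0.147 FPKM in FFC 1 to FFC 4, and 4.199, 1.17, 0.0499 and 1.02 FPKM in FF 1 to FF 4 (limma adjusted p = 0.759). FFC 4 was the exception to otherwise higher FFC values. Of the 8 other ecto-enzymes 6 were tested, 1 with a higher and 5 with a lower mean in FFC, and 0 passed. Enpp1, which splits ATP into AMP and pyrophosphate, had 9.14 ± 7.47 FPKM in FFC and 27.2 ± 26.4 FPKM in FF. Of the 3 other P2Y and 5 other P2X receptors, a single gene of each kind had a mean of at least 1 FPKM, P2ry1 and P2rx1, with differences of -0.68 ± 0.99 and 0.37 ± 0.94. P2ry1 reached 17.3 FPKM in FF 2 and at most 2.78 FPKM elsewhere. Among 12 signalling partners the mean was higher in FFC for 10, and their median difference was 0.45, against 56.7% of all genes and a median of 0.19. All of these partners but Bdnf averaged 5 FPKM or more, and over all genes at that level the median was 0.38, close to theirs.

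**Figure D5:**
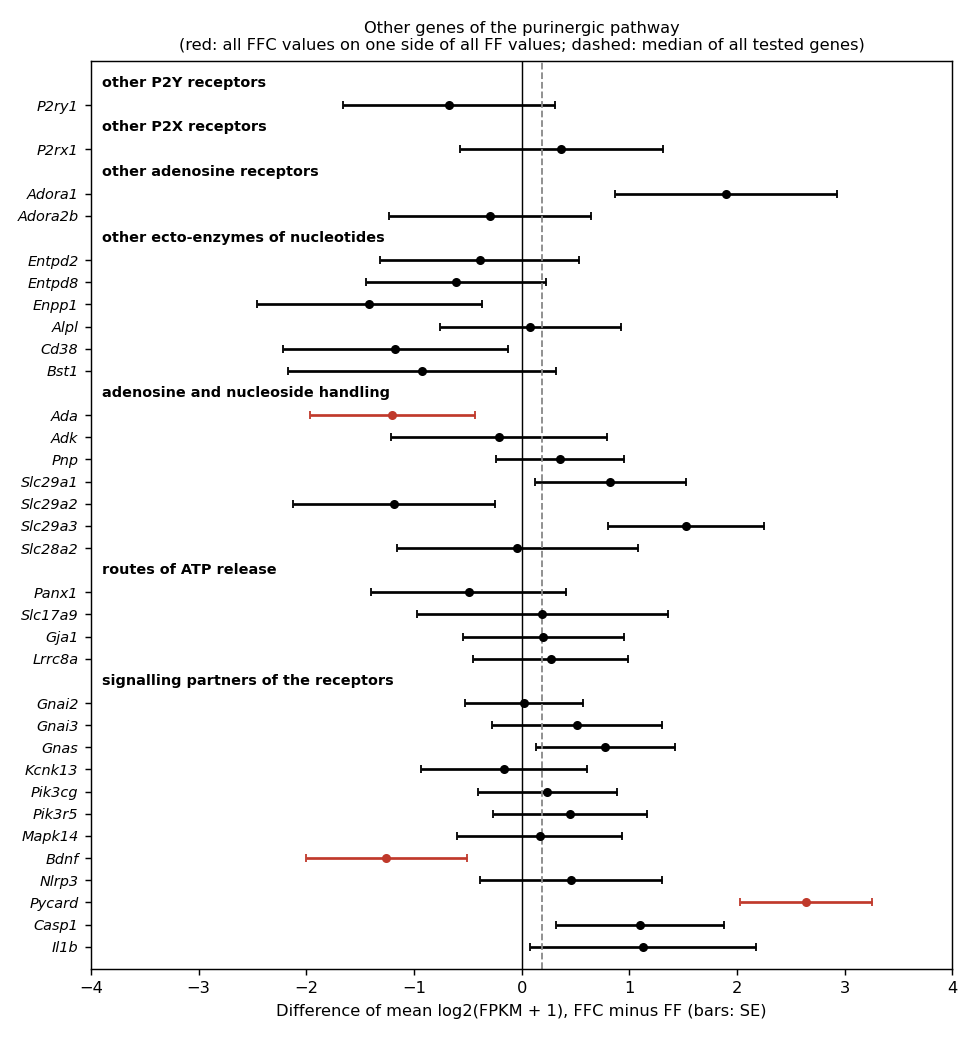
Difference of mean log2(FPKM + 1), FFC minus FF, for the 33 tested genes of the wider purinergic list, grouped by role, with bars of 1 SE from limma; the dashed line is the median of all tested genes. Pycard lies furthest to the right and Ada and Bdnf to the left, the 3 genes in red whose groups do not overlap.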

How the data were processed

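RNA of sorted microglia was amplified with the Ovation method and sequenced on an Illumina HiSeq, per the labels' protocols. The authors deposited FPKM values in a single table of 37447 genes. Per the submitters' processing notes the build was mm9, and the tools were Cufflinks 2.0.2, TopHat2 2.0.4, CASAVA 1.8.2 and Bowtie2 2.0.0. Their settings and the gene annotation are not given. Left out were 447 genes lacking a value in some library. The table's starts count from 0, since 21680 genes then have their GENCODE M21 length and 420 otherwise; they are printed counted from 1. Zeros may be failed estimates and are given as listed at 0.

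Values were tested as log2(FPKM + 1) in 17753 genes averaging 1 FPKM or more, by limma 3.58.1 in R 4.3.3 (trended empirical Bayes, two-sided tests, threshold 0.05 after Benjamini-Hochberg adjustment over these genes), with genotype, sex with genotype as a covariate, or both with their interaction. Changes of low genes come out too small on this scale. Single values were compared with exact permutation tests. Summaries and figures used scipy 1.17.1, matplotlib 3.10.9, pandas 2.3.3 and numpy 2.4.6 in Python 3.11.15.

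Members, the wider list and the markers were chosen with earlier results of these data known, so no list was tested. Named genes were the members, the 6 genes of the wider list with the highest mean, neighbours within 50 kb, the 3 most similar profiles of each member with a mean of at least 5 FPKM, and the genes said to be named after their values were seen. Adora1, Enpp1, P2ry1, P2rx1, Nlrp3 and Casp1 were also named after their values were seen. Replicate numbers are shared between genotypes, but same-numbered libraries did not deviate together, so the fit has no replicate block.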

Additional observations from a re-analysis of the deposited data

Results flagged for a closer look

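P2ry12 and P2ry13 in FFC 1 stood far below the other 3 FFC libraries, at 122 and 41.4 FPKM against at least 284 and 116 FPKM. As log2(FPKM + 1) they were at 6.94 and 5.40, against at least 8.16 and 6.87. The check used Dixon's ratio of gap to range on that log2 scale, with a critical value of 0.829, which neither gene reaches on FPKM itself. Of 22 groups of 4 libraries checked for a library far from the others, P2ry12 and P2ry13 in FFC 1 were the 2 found, and chance alone gives about 1 in 20. A count of 2 among 22 is not far from that share. The 2 are also not separate findings, since both fall in FFC 1 and these genes varied together across libraries. In the same library the microglial markers Siglech, Gpr34 and Fcrls were also the lowest of FFC, at 93.0, 47.4 and 12.4 FPKM against at least 303, 246 and 20.3 FPKM, while P2rx4 and Sall1 were the highest of FFC, at 179 and 134 FPKM. The cause was not tested.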

How the results depend on the processing

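No member in the limma fits passed in any of the 21 alternatives in which it was tested (smallest adjusted p = 0.534), and the number of genes called over all genes was 0 in each except without FFC 4 or FF 1, with a range of 0 to 1 over single libraries left out. P2ry12 ranged from -0.21 to 0.26, the Adora3 row ENSMUSG00000074344 from -0.71 to 0.29 and P2ry14 from -0.24 to 0.76 with single libraries left out, and P2ry14 was -0.16 with a pseudocount of 0.1. Without FF 2 and FF 4 the signs of P2ry13 (-0.12), that Adora3 row (0.145) and Adora2a (0.05545) turned. Nt5e ranged from -0.92 to -0.49 with single libraries left out. Without FF 2, the only FF library that overlapped FFC, its exact two-sided permutation p was 0.0286. That is the smallest p such a split can give, so it adds no support. The median over the members lay between 0.27 and 0.54 with single libraries left out and between 0.15 and 0.63 under other alternatives. For the wider list it was between -0.12 and 0.24, and -0.05 and 0.40. The values of 0.63 and 0.40 came from the filter of 5 FPKM, where the median of all genes was 0.38. Between the sexes, male minus female, quantile normalization turned P2rx7 (0.0878), Adora3 (ENSMUSG00000000562, 0.0323) and P2ry6 (0.18), and P2ry6 was 0.0755 and 0.0686 after upper-quartile and equal-sum scaling. Among genes at an unadjusted p under 0.05 the share higher in FFC was 70.0% as reported, 59.7%, 60.4% and 61.5% after upper-quartile, quantile and equal-sum scaling, and 39.8% without FF 2 and FF 4. With the replicate block the count of called genes was 0 and P2ry12 stayed at -0.06; correlations of same-numbered libraries were -0.0516 to 0.0344, and 1 of 8 libraries matched its own number best. Depth behind single values is unknown, so the precision of the scarce members cannot be given.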
